A study of Mus musculus with 6 samples.

Results

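The genes described here are 48 components of the machinery that copies DNA and supplies its building blocks, taken by symbol from a table of 55487 gene rows. They were chosen for their known role in replication, with earlier results of these data known, and fall into 9 roles: origin licensing (5 genes), the MCM2-7 helicase (6), helicase activation (6), polymerases and primase (9), the sliding clamp and its loader (6), lagging-strand processing with the single-strand binding protein RPA (5), nucleotide supply (5), the E2F factors and E cyclins that govern entry into S phase (4) and the chromatin assembly factor CAF-1 (2). RNA was measured in untreated cells of the 4T-1 line, which derives from a mouse mammary carcinoma, in 3 libraries of Lyplal1 knockout (KO) cells and 3 libraries of wild-type (WT) cells. Lyplal1 encodes an enzyme of the acyl-protein thioesterase family, which remove palmitate from proteins, and the series title ties it to the DNA sensor cGAS. The labels do not say whether the KO cells are 1 clone or a pool, or whether the libraries of a group came from separate cultures, so p-values measure only the spread between these libraries.

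Replication starts when the origin recognition complex (ORC), CDC6 and CDT1 load the MCM2-7 ring on DNA before S phase, while geminin holds CDT1 back afterwards. CDC45 and GINS then turn the ring into the active helicase, polymerase alpha-primase lays down primers, and polymerases epsilon and delta extend the strands on the PCNA clamp. Ribonucleotide reductase makes the deoxynucleotides, and E2F factors drive transcription of many of these genes as cells leave G1. Abundant replication transcripts are a usual feature of dividing tumour cell lines.

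Total counts ran from 16731209 to 16784906 in KO libraries and from 17007616 to 17108975 in WT libraries. The Lyplal1 transcript was not called different, at 54, 48 and 58 counts in KO and 76, 73 and 68 counts in WT (edgeR adjusted p = 0.0886), so RNA does not check the genotype labels. Epithelial markers of the line were present, with summed levels of 2300 to 2360 CPM (counts per 1000000 counts) in KO and 3370 to 3460 CPM in WT, and 5 of the 6 were called lower, while Cldn4 was called higher at a log2 fold change of 1.21. The 6 leukocyte markers summed to 0.312 to 1.89 CPM in KO and 0.336 to 0.506 CPM in WT, and the 4 endothelial markers to 1.06 to 6.48 CPM in KO and 0.168 to 0.223 CPM in WT. KO replicate 3 was the highest library for both of these. The 5 fibroblast markers summed to 165 to 179 CPM in KO and 67.2 to 69.9 CPM in WT, nearly all from Pdgfra, and Lum was at 0 in WT. Only 2 of the 5 had enough counts to be tested, and they moved apart. Pdgfra was called higher at a log2 fold change of 1.39, and Col1a1 lower at -1.4 (1.38 CPM in KO, 3.66 CPM in WT). The part of these marker transcripts in the results below was not tested.

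Replication transcripts were mostly lower in KO cells, by modest amounts and not as a block. Of the 48 genes, all of which passed the filter on low counts, 33 were called lower, 8 higher and 7 in neither direction (quasi-likelihood test in edgeR over all 13022 tested genes, with a threshold of 0.05 on the Benjamini-Hochberg adjusted p). Change was widespread in this comparison: of all tested genes 40.9% were called lower, 41.3% higher and 82.3% in either direction, so a call by itself sets no member apart. The share of members called in either direction, 85.4%, was near that background, and the difference lay in the direction, since 68.8% of members were called lower and 16.7% higher. The median log2 fold change was -0.42 over the members and 0.00 over all tested genes. The KO and WT libraries did not overlap in CPM for 42 of 48 members, or 87.5%, which is again near the 83.1% of all tested genes. Every KO library lay below every WT library for 34 of 48 members, or 70.8%, against 41.4% of all tested genes. Falls of at least 2-fold were seen in 8 of 48 members, or 16.7%, and in 15.6% of all tested genes, while 0 of 48 members rose 2-fold, against 12.4% of all. In RNA from whole cultures, fewer cells in S phase and less RNA per cell cannot be told apart.

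The scale of the data bears on the members that rose. With upper-quartile factors the median of all tested genes stood at -0.13, and on log2(TPM + 1), where TPM is transcripts per 1000000 after division by gene length, at -0.19. On those scales 38 and 40 members were lower and 5 and 4 higher, so that 88.4% and 90.9% of the called members were lower, against 80.5% in the main test. For all tested genes the same share was 57.2% and 61.5%, against 49.8%. Set against the median of all genes, the members' median was -0.42 and -0.41, close to the -0.42 of the main test. The rises of Pola1, Pold2, Gins3 and Rpa1, 4 of the 8, held in all 16 alternative settings.

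**Figure D1:**
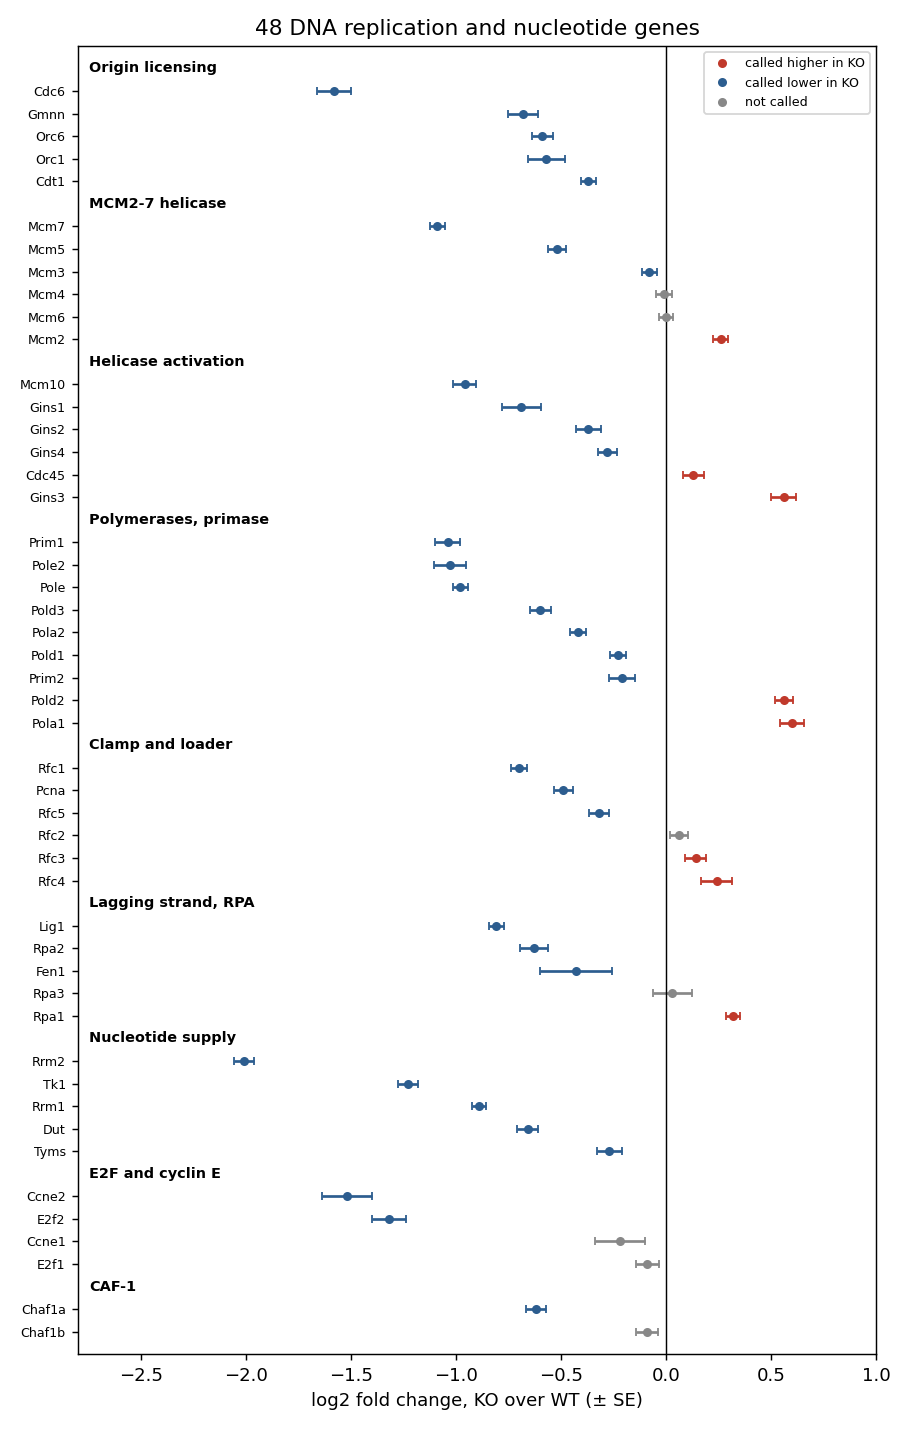
Log2 fold change of each of the 48 genes, KO over WT, with its standard error (horizontal axis), grouped by role; red points were called higher in KO, blue points lower and grey points neither. Points spread from -2.01 for Rrm2 to 0.60 for Pola1, and origin licensing and nucleotide supply have no point right of 0.

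Promoter sequence was examined because E2F factors are known to act at many of these genes. Of the 48, 39 matched an entry in the RefSeq table of promoters (build GRCm38.p6), which spans 250 bases before and 50 after each start. The search used 4 spellings of the E2F consensus, TTTCCCGC, TTTCGCGC, TTTGCCGC and TTTGGCGC, on both strands, where matches may overlap each other. At least 1 occurred in 15 of the 39 members, or 38.5%, compared with 4.88% of the 9432 tested genes with an entry and 2.26% of all 32851 windows. These letters were found in 11 of 26 members called lower, 3 of 8 called higher and 1 of 5 not called. The short CCAAT box, also on both strands, was in 59.0% of members, 43.3% of tested genes and 37.4% of all windows. By call, it was in 14 of 26 members called lower, 7 of 8 called higher and 2 of 5 not called. The upstream sequences below show that the E2F letters stood beside a gene that fell (Mcm5), one that was not called (Mcm6) and one that rose (Pola1). Capitals mark the E2F letters in these, and each runs 5′ to 3′ on the gene's strand over 160 bases that end before both the RefSeq and the GENCODE start.
Mcm5, chr8:75109349-75109508, plus strand: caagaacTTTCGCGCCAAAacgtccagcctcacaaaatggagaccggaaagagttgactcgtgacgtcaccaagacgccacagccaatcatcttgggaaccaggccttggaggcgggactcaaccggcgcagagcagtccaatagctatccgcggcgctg
Mcm6, chr1:128359706-128359865, minus strand: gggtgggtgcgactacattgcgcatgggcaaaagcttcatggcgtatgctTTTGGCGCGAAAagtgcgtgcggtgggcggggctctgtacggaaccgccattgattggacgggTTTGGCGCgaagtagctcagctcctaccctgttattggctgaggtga
Pola1, chrX:93632156-93632315, minus strand: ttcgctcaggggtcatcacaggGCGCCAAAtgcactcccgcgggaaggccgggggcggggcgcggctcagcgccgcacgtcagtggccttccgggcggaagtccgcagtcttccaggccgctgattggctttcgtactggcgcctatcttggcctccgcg
For Rrm2, the member with the largest fall, none of the 4 spellings was in the window, and capitals mark its CCAAT box.
Rrm2, chr12:24708081-24708240, plus strand: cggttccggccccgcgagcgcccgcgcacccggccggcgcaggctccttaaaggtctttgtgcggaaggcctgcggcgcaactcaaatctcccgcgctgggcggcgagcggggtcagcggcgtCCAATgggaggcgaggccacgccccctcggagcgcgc

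All 5 licensing genes fell, against 40.9% of all tested genes, with a median log2 fold change of -0.59. Cdc6, the ATPase that helps ORC load the MCM ring, had 10.1, 8.80 and 11.4 CPM in KO replicates 1 to 3, against 30.7, 29.2 and 30.7 CPM in WT replicates 1 to 3. Every KO value was under 12 CPM and every WT value over 29 CPM, and the log2 fold change was -1.58 ± 0.081 (SE, edgeR adjusted p = 6.14e-16). Gmnn, which encodes geminin, the inhibitor of CDT1, had 15.8, 16.7 and 16.6 CPM in KO and 25.4, 27.9 and 25.2 CPM in WT, and its log2 fold change was -0.68 ± 0.071 (adjusted p = 1.97e-09). Its partner Cdt1 fell less, to 247 ± 14.0 CPM in KO, against 320 ± 6.06 CPM in WT (SD, n = 3 each, log2 fold change -0.37 ± 0.037). The Cdt1 to Gmnn ratio of TPM within a library was therefore 7.04, 6.66 and 7.39 in KO and 5.92, 5.23 and 5.99 in WT. The groups did not overlap in this ratio, though 83.1% of all tested genes did not overlap in CPM either. Orc1 and Orc6, the ORC subunits among the members, fell by 0.57 and 0.59 on the log2 scale. Some 10.8% of the exon bases of Orc1 lie opposite exons of Gm12743, and 6.93% of those of Orc6 opposite exons of Vps35.

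The other ORC subunits, from a list of 14 further origin factors, moved the opposite way. Orc2 had 68.9, 76.8 and 76.8 CPM in KO and 42.2, 42.7 and 45.8 CPM in WT, and Orc4 had 89.5, 95.2 and 92.3 CPM in KO and 53.6, 56.1 and 53.8 CPM in WT. Orc3 and Orc5 also rose in the main test, at log2 fold changes of 0.41 and 0.29. The rises of Orc2, Orc3 and Orc4 were called with every scaling tried, while Orc5 was not called on log2(TPM + 1) (log2 fold change 0.08, limma adjusted p = 0.18). These 4 were named after their values were seen. Of the 14 origin factors 7 rose and 7 fell (median 0.01), and on log2(TPM + 1) 4 rose and 7 fell (median -0.20). In the main test that was 50% each way, near the 41.3% higher and 40.9% lower of all tested genes. Recql4, a helicase required for origin firing, rose most at 1.30 ± 0.060. The firing factor genes Ticrr and Topbp1 fell most, at -0.92 ± 0.044 and -0.84 ± 0.035.

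The 6 genes of the MCM2-7 ring did not move together. Mcm7 had 104, 98.8 and 103 CPM in KO and 217, 215 and 218 CPM in WT, and fell by 1.09 ± 0.036 on the log2 scale (SE, edgeR adjusted p = 5.13e-20). Mcm5 had 193, 206 and 216 CPM in KO and 296, 279 and 308 CPM in WT, with a log2 fold change of -0.52 ± 0.041. Mcm2 went the other way, with 236, 244 and 257 CPM in KO and 201, 208 and 204 CPM in WT (log2 fold change 0.26 ± 0.036, adjusted p = 1.90e-07). On log2(TPM + 1) that difference was 0.06 and was not called (limma adjusted p = 0.159). The level of Mcm4 was 127, 125 and 122 CPM in KO and 126, 124 and 125 CPM in WT, and that of Mcm6 266, 268 and 260 CPM in KO and 259, 264 and 273 CPM in WT. Both gave a log2 fold change within 0.01 of 0, with an SE of 0.037 and 0.033, but were called lower with upper-quartile factors (-0.14 for each) and on log2(TPM + 1) (-0.21 for each). Mcm3 was called lower at only -0.08 ± 0.036 (adjusted p = 0.0427), and lost the call with DESeq2 (adjusted p = 0.065), without a filter (0.214) and without KO replicate 1 or 3 or WT replicate 1 or 3 (0.0647 to 0.147). Some 7.25% of the exon bases of Mcm7 lie opposite exons of Ap4m1, which itself had 673 counts over the KO libraries and 1324 over the WT libraries.

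Levels per length give the order of the subunits within each group. Length covers all annotated exon bases, 6956 for Mcm2 and 3589 to 4666 for the other genes of the ring. Ranks per length, here and below, therefore depend on the annotated length. A gene's own length cancels when that gene is compared between groups, though the TPM scale rests on the lengths of all genes. In KO the highest subunit in each library was Mcm6, at 212, 215 and 201 TPM, and the lowest was Mcm7, at 87.6, 83.3 and 84.3 TPM. In WT the highest was Mcm5, at 317, 299 and 327 TPM, and the lowest was Mcm2, at 124, 128 and 124 TPM. The span from highest to lowest was nevertheless similar, 2.39 to 2.58 times in KO and 2.34 to 2.62 times in WT.

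Among the genes that turn the loaded ring into a moving helicase, 4 fell and 2 rose. These shares, 66.7% and 33.3%, compare with 40.9% and 41.3% of all tested genes. Mcm10, needed to start unwinding, had 42.3, 37.0 and 37.6 CPM in KO and 75.4, 71.9 and 79.5 CPM in WT, a log2 fold change of -0.96 ± 0.055 (SE, edgeR adjusted p = 8.20e-15). The 4 subunits of GINS, which sit in the active helicase in equal numbers, split. Gins1 had 7.94, 8.11 and 7.49 CPM in KO and 12.1, 13.1 and 12.9 CPM in WT (log2 fold change -0.69 ± 0.094), and Gins2 and Gins4 fell by 0.37 and 0.28 on the log2 scale. Gins3 rose, with 37.1, 39.0 and 35.3 CPM in KO and 24.7, 25.7 and 25.4 CPM in WT (log2 fold change 0.56 ± 0.060, adjusted p = 3.71e-09). Gins4 was the most abundant and Gins1 the least abundant subunit per length in every library, and the span between them was 7.13 to 8.11 times in KO and 5.41 to 5.88 times in WT. Cdc45, which joins GINS on the ring, had 49.8, 46.4 and 48.6 CPM in KO and 44.6, 43.8 and 44.1 CPM in WT. Its call as higher (0.13 ± 0.051, adjusted p = 0.0224) was lost with DESeq2 (adjusted p = 0.0848), and on log2(TPM + 1) the value was -0.08 and not called. It was also lost without KO replicate 1 (0.0732), WT replicate 2 (0.0726) and WT replicate 3 (0.0599). Some 5.96% of the exon bases of Cdc45 lie opposite exons of Ufd1, which had 4281 counts over the KO libraries and 1964 over the WT libraries. Exons of Gse1 cover 67.3% of the exon bases of Gins2 on the opposite strand. Gse1 had 2904 counts over the KO libraries and 4953 over the WT libraries. Whether counting used strand is not given in the sources used here.

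Of the 9 polymerase and primase genes 7 fell and 2 rose, or 77.8% and 22.2%, against 40.9% and 41.3% of all tested genes. Within polymerase alpha-primase, Pola1, the catalytic subunit of the polymerase, rose, with 95.6, 106 and 97.7 CPM in KO and 66.1, 71.5 and 59.7 CPM in WT (log2 fold change 0.60 ± 0.056, SE, edgeR adjusted p = 4.19e-09). Prim1, the catalytic subunit of the primase, had 24.8, 28.6 and 27.8 CPM in KO and 54.1, 55.3 and 58.1 CPM in WT, and changed by -1.04 ± 0.059 on the log2 scale (adjusted p = 4.47e-15). Neither pair of groups overlapped, as was so for 83.1% of all tested genes. The accessory subunits Pola2 and Prim2 fell by 0.42 and 0.21 on the log2 scale.

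Polymerase epsilon, which extends the leading strand, fell in both listed subunits. Pole, its catalytic subunit, stood at 116 ± 3.72 CPM in KO and 230 ± 2.86 CPM in WT (SD, n = 3 each, log2 fold change -0.98 ± 0.036). Pole2 had 14.6, 12.1 and 14.3 CPM in KO and 29.0, 27.2 and 27.7 CPM in WT, at -1.03 ± 0.076 (adjusted p = 1.52e-12). The small histone-fold subunit gene Pole4, outside the member list, rose instead, with 15.1, 17 and 18.3 CPM in KO and 10.9, 11.9 and 11 CPM in WT (0.57 ± 0.088). Pole3, named here to complete the complex, was also called higher, at 0.21 ± 0.054. That call was lost with upper-quartile factors (0.08) and on log2(TPM + 1). In polymerase delta, which extends the lagging strand, Pold2 rose, with 169, 169 and 187 CPM in KO and 115, 118 and 124 CPM in WT (0.56 ± 0.042, adjusted p = 3.57e-12). The catalytic subunit gene Pold1 and the PCNA-binding subunit gene Pold3 fell, at -0.23 ± 0.037 and -0.60 ± 0.050. Per length, Pold2 was the most abundant of all 48 genes in KO, at 340 TPM, while in WT it was Cdt1, at 434 TPM.

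**Figure D2:**
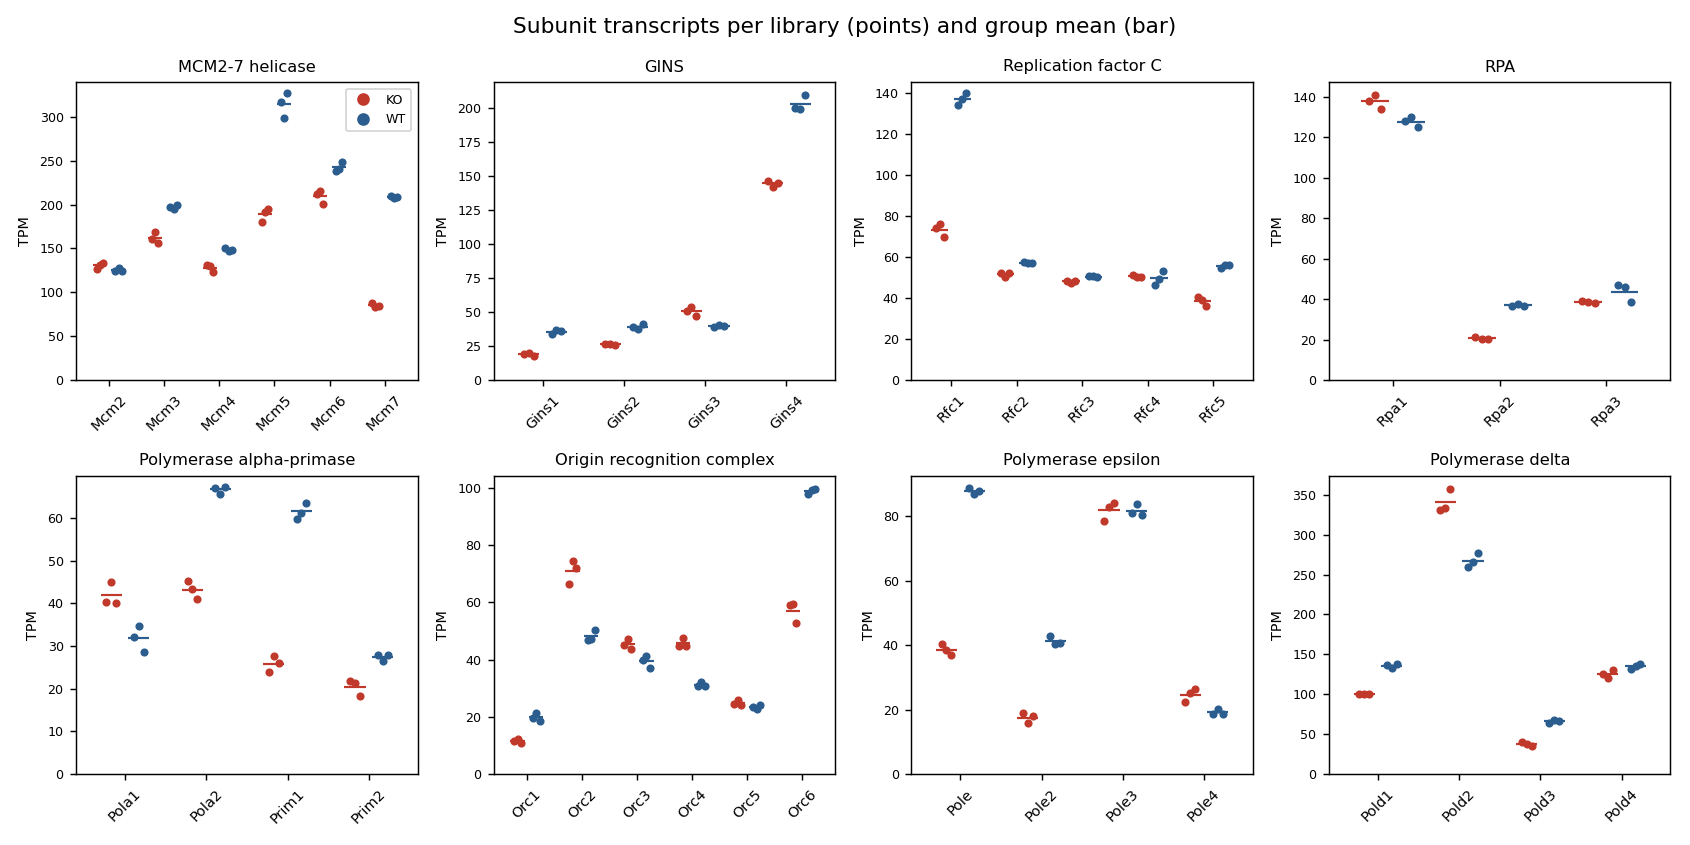
Transcript level in TPM (vertical axis, from 0) of the subunits of 8 complexes, 3 KO libraries in red and 3 WT libraries in blue, with a bar at each group mean. KO points lie above WT points for Pola1, Pold2, Gins3, Rpa1, Orc2, Orc3, Orc4 and Pole4, while Mcm7 falls to 83.3 to 87.6 TPM in KO, against 208 to 210 TPM in WT; the median gene stands 0.19 lower in KO on log2(TPM + 1).

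The clamp and its loader gave 3 falls, 2 rises and 1 gene not called. By share, 50% fell and 33.3% rose, against 40.9% and 41.3% of all tested genes. Pcna, the ring that holds polymerases on DNA, had 56.8, 54.9 and 55.0 CPM in KO and 77.4, 76.1 and 80.8 CPM in WT (log2 fold change -0.49 ± 0.045, SE, edgeR adjusted p = 1.57e-10). Rfc1, the large subunit of the replication factor C loader, had 120, 123 and 116 CPM in KO and 189, 194 and 199 CPM in WT (-0.70 ± 0.037, adjusted p = 1.51e-15). The small subunits changed less. Rfc5 fell by 0.32 on the log2 scale. Rfc3 had 46.9, 46.1 and 48.4 CPM in KO and 42.8, 42.9 and 42.8 CPM in WT (0.14 ± 0.050, adjusted p = 0.0153), and Rfc4 had 21.2, 20.7 and 21.3 CPM in KO and 16.7, 17.8 and 19.2 CPM in WT (0.24 ± 0.073, adjusted p = 0.0045). Neither rise was called with upper-quartile factors or on TPM, where the value for Rfc3 was -0.07, and that of Rfc3 was not called with DESeq2 either (adjusted p = 0.0663). Part of Rfc4, 12.7% of its exon bases, lies opposite exons of Eif4a2, which had 15137 counts over the KO libraries and 8300 over the WT libraries. For Rfc2 the share is 15.1%, opposite Lat2, which had 284 counts over the KO libraries and 52 over the WT libraries. For Rfc5 it is 10.7%, opposite Wsb2, which had 5645 counts over the KO libraries and 3585 over the WT libraries. Rfc2 had 88.8, 85.0 and 91.0 CPM in KO and 85.3, 83.9 and 84.9 CPM in WT, and was not called at 0.06 ± 0.042. On log2(TPM + 1) its value was -0.15, which was called lower (limma adjusted p = 0.00574). The span from highest to lowest of the 5 subunits per length was 1.82 to 1.95 times in KO and 2.77 to 2.88 times in WT, with Rfc1 the highest throughout.

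At the lagging strand, Lig1, the ligase that joins Okazaki fragments, had 116, 118 and 116 CPM in KO and 201, 210 and 204 CPM in WT (log2 fold change -0.81 ± 0.036, SE, edgeR adjusted p = 2.43e-17). Fen1, the nuclease that trims their flaps, was the member with the fewest counts in WT, at 40, 41 and 54 counts in KO and 78, 70 and 55 counts in WT. Its groups overlapped in CPM, and its call (-0.43 ± 0.17, adjusted p = 0.0273) was lost with DESeq2 (adjusted p = 0.0915) and without KO replicate 1 or 2 or WT replicate 1 or 2 (0.0684 to 0.142). Some 78.8% of the exon bases of Fen1 lie opposite exons of the antisense gene Gm10143, so its level is uncertain. Among the subunits of RPA, which coats single-stranded DNA, Rpa1, the largest, rose, with 207, 211 and 207 CPM in KO and 167, 170 and 165 CPM in WT (0.32 ± 0.034, adjusted p = 3.45e-09). Rpa2 fell, with 17.3, 16.2 and 16.6 CPM in KO and 25.7, 26.2 and 25.9 CPM in WT (-0.63 ± 0.068, adjusted p = 2.81e-09). Rpa3 had 12.0, 11.8 and 12.0 CPM in KO and 12.4, 12.2 and 10.3 CPM in WT, and was not called at 0.03 ± 0.092. On log2(TPM + 1) Rpa3 stood at -0.17 (limma adjusted p = 0.0476). The ratio of the highest to the lowest RPA subunit per length, Rpa1 to Rpa2 in every library, was 6.43 to 6.98 in KO and 3.42 to 3.49 in WT.

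Nucleotide supply held the largest fall. All 5 members fell, against 40.9% of all tested genes, with a median log2 fold change of -0.89. Rrm2, the small subunit of ribonucleotide reductase that is made in S phase, had 29.0, 27.7 and 28.8 CPM in KO and 113, 115 and 116 CPM in WT (log2 fold change -2.01 ± 0.047, SE, edgeR adjusted p = 1.83e-23). Among all tested genes that change stood at percentile 5.8 of the fold changes, counted from the largest fall. Rrm1, the large subunit, was at 161 ± 2.89 CPM in KO and 300 ± 1.82 CPM in WT (SD, n = 3 each, -0.89 ± 0.033). The ratio of Rrm2 to Rrm1 in TPM was 0.730, 0.672 and 0.705 in KO and 1.51, 1.53 and 1.53 in WT. The ratio was thus lower in the 3 KO libraries than in the 3 WT libraries. Its level depends on the gene lengths used, 11012 exon bases for Rrm1 and 2771 for Rrm2. It therefore does not tell which message was more abundant. Tk1, the thymidine kinase of dividing cells, had 52.1, 47.4 and 52.1 CPM in KO and 122, 118 and 116 CPM in WT (-1.23 ± 0.046, adjusted p = 5.30e-19). Dut, the dUTPase that keeps uracil out of DNA, and Tyms, which makes dTMP, fell by 0.66 and 0.27 on the log2 scale.

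Other genes of deoxynucleotide metabolism did not follow these 5. Of 13 on a separate list, 9 rose and 4 fell, with a median of 0.52. On log2(TPM + 1) 8 rose and 4 fell (median 0.30). In the main test 69.2% of the 13 rose and 30.8% fell, against 41.3% and 40.9% of all tested genes. Rrm2b, the alternative small subunit of ribonucleotide reductase used outside S phase, rose most, with 50.8, 53.0 and 47.1 CPM in KO and 25.3, 28.8 and 24.8 CPM in WT (0.94 ± 0.063, adjusted p = 2.39e-13). Dck, the deoxycytidine kinase of salvage, had 26.3, 25.3 and 27.8 CPM in KO and 55.9, 57.9 and 53.6 CPM in WT (-1.08 ± 0.057). Samhd1, Dguok and Tk2 were named after their values were seen. Samhd1, which breaks down deoxynucleotides, stood at 237, 243 and 235 CPM in KO and 125, 124 and 125 CPM in WT, and Dguok and Tk2, the mitochondrial salvage kinases, rose by 0.93 and 0.52. Of 18 genes of de novo purine and pyrimidine synthesis 12 rose, 5 fell and 1 was not called (median 0.34). Beside the same background, 66.7% of the 18 rose and 27.8% fell in the main test. On log2(TPM + 1) 10 rose and 6 fell (median 0.13), as with upper-quartile factors (median 0.20). Prps1, which makes the ribose donor PRPP, rose most at 1.42 ± 0.046, while Paics and Ppat, both purine pathway enzymes, fell most at -0.78 ± 0.032 and -0.74 ± 0.051.

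**Figure D3:**
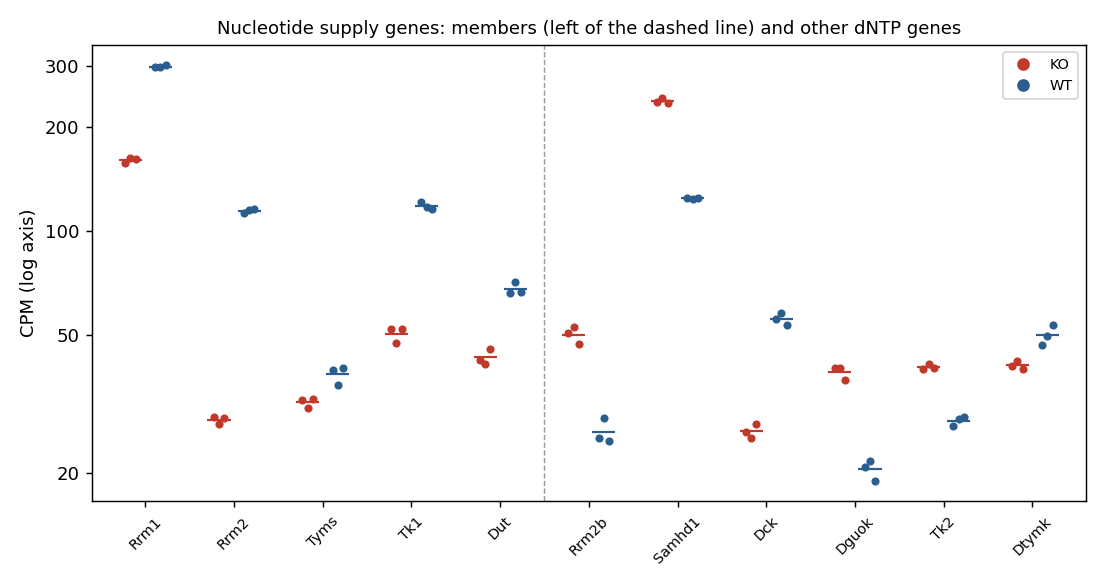
CPM on a log axis for the 5 nucleotide supply members (left of the dashed line) and 6 other genes of deoxynucleotide metabolism, 3 KO libraries in red and 3 WT libraries in blue, with a bar at each group mean. Rrm2 sits at 27.7 to 29.0 CPM in KO, against 113 to 116 CPM in WT, whereas Rrm2b sits at 47.1 to 53.0 CPM in KO, against 24.8 to 28.8 CPM in WT.

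The regulators of S phase entry split by paralog. E2f2, an activating E2F, had 10.6, 9.68 and 8.93 CPM in KO and 25.6, 23.6 and 24.0 CPM in WT (log2 fold change -1.32 ± 0.082, SE, edgeR adjusted p = 3.91e-14). E2f1, another activating E2F, had 46.3, 44.3 and 44.8 CPM in KO and 51.2, 45.3 and 47.9 CPM in WT, and was not called at -0.09 ± 0.054. Ccne2, one of a pair of E cyclins that activate CDK2, had 4.38, 4.06 and 3.65 CPM in KO and 11.9, 12.8 and 9.95 CPM in WT (-1.52 ± 0.12, adjusted p = 1.05e-11). Exons of Ints8 on the opposite strand cover 17.4% of its exon bases. Ccne1, the other one, had 5.69, 5.18 and 5.66 CPM in KO and 6.30, 6.33 and 6.63 CPM in WT, and was not called at -0.22 ± 0.12 (adjusted p = 0.0832). Both uncalled genes were called lower with upper-quartile factors and on TPM, and E2f1 also without WT replicate 2 (adjusted p = 0.0349). The Ccne2 to Ccne1 ratio of TPM was 0.586, 0.596 and 0.491 in KO and 1.44, 1.54 and 1.14 in WT, and the E2f2 to E2f1 ratio was 0.148, 0.141 and 0.129 in KO and 0.323, 0.337 and 0.323 in WT. Neither pair of ratios overlapped between groups, though 83.1% of all tested genes did not overlap in CPM either.

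Of 19 other G1/S regulators 12 fell, 2 rose and 5 were not called (median -0.62). By share, 63.2% fell and 10.5% rose, against 40.9% and 41.3% of all tested genes. With upper-quartile factors and on log2(TPM + 1) 17 fell. Tfdp2, a dimer partner of E2Fs, fell most, at -1.97 ± 0.056, followed by the repressor E2f8 at -1.37 ± 0.054. E2f5, another repressor, rose to 43.7, 41.3 and 44.9 CPM in KO, against 28.5, 27.5 and 26.7 CPM in WT (0.65 ± 0.058).

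CAF-1, which puts histones on new DNA, gave 1 fall and 1 gene not called. Chaf1a, the large subunit, had 78.9, 83.7 and 91.7 CPM in KO and 130, 133 and 128 CPM in WT (log2 fold change -0.62 ± 0.046, SE, edgeR adjusted p = 1.67e-12). Exons of Ubxn6 on the opposite strand cover 52.5% of its exon bases. Chaf1b had 40.5, 40.4 and 41.3 CPM in KO and 41.3, 44.7 and 44.1 CPM in WT, and was not called at -0.09 ± 0.053 (adjusted p = 0.116), though it was called lower with upper-quartile factors and on TPM. Of 10 further genes of histone supply and chromatin copying 7 fell, 2 rose and 1 was not called, and on log2(TPM + 1) 9 fell and 1 rose. In the main test 70% of the 10 fell and 20% rose, against 40.9% and 41.3% of all tested genes. Uhrf1, which reads hemimethylated DNA, and Slbp, which binds the stem loop of histone messages, fell most, at -1.26 ± 0.041 and -0.96 ± 0.061, and the histone chaperone gene Asf1a rose most at 0.49 ± 0.065. Of 70 histone genes only 8 had enough counts to be tested and 19 had none in any library. These 70 were taken by the symbol prefixes Hist1h, Hist2h, Hist3h and Hist4h, and include the pseudogene Hist3h2bb-ps. Of the 8 tested, 6 fell (75%), 1 rose (12.5%) and 1 was not called. The rise, of Hist1h1e, was not called with DESeq2 (adjusted p = 0.0569), and 0 of the tested histone genes were called higher without KO replicate 3. Hist1h1c fell to 3.19, 2.12 and 3.65 CPM in KO, against 10.7, 9.92 and 10.7 CPM in WT, and Hist2h2be to 1.44, 2.31 and 1.82 CPM in KO, against 5.36, 5.04 and 6.52 CPM in WT. Among the other falls, Hist1h1d, Hist1h2be and Hist1h4i were near the floor, at means of only 0.821, 0.934 and 1.01 CPM in WT.

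At the fork itself, 13 of 18 further factors fell, 3 rose and 2 were not called (median -0.60), and on log2(TPM + 1) 15 fell and 1 rose. Clspn, the adaptor that links the fork to CHK1, had 19.7, 18.2 and 19.5 CPM in KO and 52.4, 51.4 and 49.9 CPM in WT (-1.42 ± 0.059), and Dscc1, of the alternative clamp loader, fell by 1.33 ± 0.12. Of 12 genes of the S phase checkpoint and fork repair 6 fell, 3 rose and 3 were not called (median -0.31), and on log2(TPM + 1) 8 fell and 3 rose (median -0.48). In the main test 50% of these 12 fell and 25% rose, against 40.9% and 41.3% of all tested genes. For the 18 fork factors the shares were 72.2% and 16.7%. Brca2 and Brca1, which protect stalled forks, fell most, at -1.78 ± 0.071 and -1.04 ± 0.050, and the clamp subunit Rad9a rose most at 0.60 ± 0.040.

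**Figure D4:**
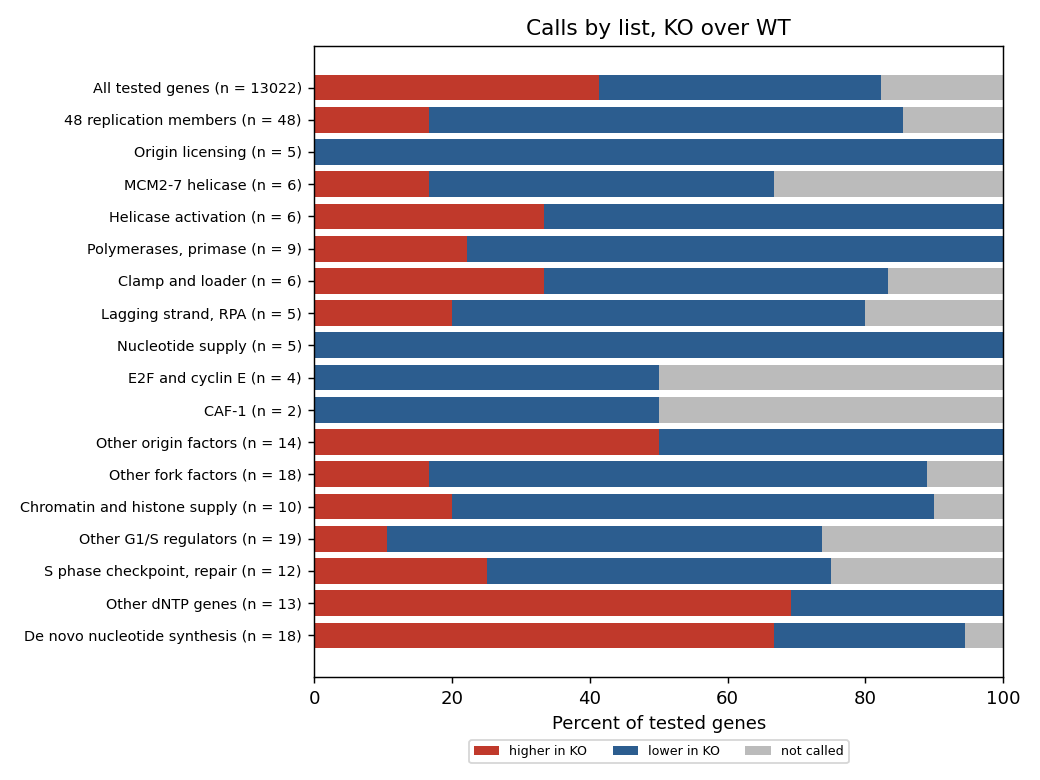
Percent of the tested genes of each list called higher in KO (red), lower in KO (blue) or neither (grey), with the number tested beside each name. All tested genes split 41.3% higher and 40.9% lower, the 48 members 16.7% higher and 68.8% lower, and the 13 other dNTP genes 69.2% higher and 30.8% lower.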

How the data were processed

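For all 6 libraries the authors deposited raw counts by gene, alongside TPM (transcripts per 1000000). Build GRCm38 and the tools STAR 2.7.8a and featureCounts 2.0.1 are listed, with no roles or settings, per the submitters' processing notes. Per the labels' protocols, RNA was extracted with Trizol for a DNBseq library. Count divided by TPM was a constant gene length across libraries (9182 genes with at least 100 counts tried), and the 12 single-library files repeat the series tables. Symbols and positions come from GENCODE M21 (GRCm38); Chtf8, with a pair of entries, was left out.

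Counts were tested with edgeR 4.0.16 (TMM, filterByExpr, robust quasi-likelihood F test, two-sided, Benjamini-Hochberg), R 4.3.3. SE is the log2 fold change divided by the root of F. CPM use TMM-adjusted library sizes. The fit was first tested on simulated data. Alternatives used limma 3.58.1, DESeq2 1.42.0 and other filters, scalings and library subsets.

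Members and gene lists were chosen with earlier results of these data known. Values per library are given for the 2 called members with the largest change per role, all rises and all uncalled members. From each other list the largest rise and the 2 largest falls at 5 CPM or more are named, except 1 gene not reported here.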

Additional observations from a re-analysis of the deposited data

How the results depend on the processing

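The 16 alternatives were DESeq2, limma-voom, scaling by upper-quartile or RLE factors, 2 other filters, a test against a 1.2-fold change, a replicate block, 2 TPM scales and leaving out each of the 6 libraries. Of the 33 members called lower, 26 kept that call in all 16, and of the 8 called higher, 4 did. The count called lower was 26 against a 1.2-fold change and 31 to 40 in the other settings. The count called higher was 5 with upper-quartile factors, 4 against a 1.2-fold change and 4 on log2(TPM + 1) and log2(TPM + 0.1). The members' median log2 fold change was -0.56 with upper-quartile factors, -0.60 and -0.62 on the TPM scales and -0.40 with no filter, and leaving out 1 library in turn gave -0.44 to -0.38. Leaving out 1 library gave 31 to 33 members lower and 7 to 8 higher, and 32 and 8 without KO replicate 3. Among members called higher or not called, values at or past 0 in the other direction were Cdc45 at 0 (upper-quartile factors) and -0.08 (both TPM scales), Rfc3 at -0.07, Rfc2 at -0.15 and Rpa3 at -0.17 (both TPM scales). On these scales the median of all genes was also lower. Uncalled Mcm4 and Mcm6, within 0.01 of 0 in the main test, also took both signs, and Rfc3, Rfc2 and Rpa3 were at 0, -0.07 and -0.10 with upper-quartile factors and Rpa3 at -0.05 without WT replicate 3. Replicate numbers did not pair the libraries (correlations of same-numbered deviations -0.00742, 0.0416 and 0.0132), and with the replicate block the counts were 33 lower and 8 higher. Fen1, Ccne1 and Ccne2 had the fewest counts of the members, and their log2 fold changes the largest standard errors.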
